A study of Homo sapiens with 6 samples.

Results

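GAL, NTS and GRPR are 3 genes of neuropeptide signalling, taken from 14884 genes measured in clones of a human embryonic stem cell line. They were chosen by name after earlier results from these same arrays were known, and their own differences between groups were among the values that chose them. Their levels are therefore given as a description with no test, and tests are kept for the genes around them. Of the array's 53617 rows 16098 had a gene name here, and 4 of those named the 3 genes. They were 1 for GAL, 1 for NTS and 2 for GRPR, which are kept apart because they disagree. The names "brighter" and "dimmer" for the GRPR rows refer to their means over the 6 arrays.

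Total RNA was measured on Affymetrix human gene arrays in clones of H9, an established embryonic stem cell line, with 2 arrays in each of 3 groups. All clones carried a lentiviral vector in which the EF1α promoter drives the insert together with eGFP. In gamma_ON the insert was the histone H2A.X with the substitution S139E, which puts glutamate at the serine phosphorylated after DNA breaks. In gamma_OFF it was H2A.X with alanine at this site and at a threonine nearby (T136A, S139A), and in CTRL there was no histone insert. Cells positive for GFP and a surface antigen of pluripotent cells were sorted, plated as single cells over mouse embryonic fibroblasts and expanded as colonies, in medium conditioned by fibroblasts with 8 ng/ml of bFGF. Whether replicates 1 and 2 come from separate colonies is not said, so errors and p-values cover only how far these arrays differ, which may be technical. Cells with H2A.X that has neither substitution were not analysed here, so in either comparison with CTRL an effect of the substitution and one of added histone cannot be told apart. Gamma_ON against gamma_OFF compares the substitutions with a histone insert on both sides. Whether a group holds more than 1 clone is not said. In all of the comparisons, this one included, a difference between clones and one between vectors therefore cannot be told apart. In bulk RNA a lower level from fewer cells of a type and one from less RNA per cell cannot be told apart.

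Neuropeptides are short secreted signals cut from longer precursors in the secretory pathway. Galanin, from GAL, acts through the receptors of GALR1, GALR2 and GALR3; neurotensin, from NTS, acts mainly through NTSR1 and NTSR2; gastrin-releasing peptide, from GRP, acts through GRPR, a relative of NMBR and BRS3 in the bombesin receptor family. All of these receptors are G protein-coupled, and in neurons and gut they regulate release of other messengers, smooth muscle and secretion. GAL is also known as a transcript abundant in undifferentiated human embryonic stem cells.

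The RefSeq promoter table of GRCh38.p14 held NTS and GRPR, and the 250 bases before each start are shown because NTS and the brighter GRPR row lay on opposite sides of CTRL in gamma_ON, while the dimmer GRPR row lay on the side of NTS. Both are on the plus strand, NTS at chr12:85874045-85874294 and GRPR at chrX:16123315-16123564. Capitals mark matches, on either strand, to any of 8 motifs: TATAAA (the TATA box), its variant TATATA, the cyclic AMP response element with a free base TGACNTCA, TGACTCA (the AP-1 site), CACGTG (an E-box), GGGCGG (the GC box), ATGCAAAT (the octamer) and ACAATG (a SOX core).
NTS: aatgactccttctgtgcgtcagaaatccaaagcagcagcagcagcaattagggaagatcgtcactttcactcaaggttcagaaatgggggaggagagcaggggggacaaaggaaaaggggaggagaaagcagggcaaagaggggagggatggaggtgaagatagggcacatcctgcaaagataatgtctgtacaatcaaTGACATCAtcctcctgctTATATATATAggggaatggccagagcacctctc
GRPR: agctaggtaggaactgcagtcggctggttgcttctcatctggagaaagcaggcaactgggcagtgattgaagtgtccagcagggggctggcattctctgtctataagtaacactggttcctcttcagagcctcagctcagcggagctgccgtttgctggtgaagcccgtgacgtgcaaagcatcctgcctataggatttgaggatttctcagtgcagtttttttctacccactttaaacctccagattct
The NTS window held TGACNTCA, starting 51 bases before the gene, and 3 overlapping matches to TATATA, the first 33 bases before it. Of 35116 promoters searched in the same way, 6.87% held TGACNTCA and 3.73% held TATATA. None of the 8 motifs matched in the GRPR window. The other motifs occurred in 10.7% (TATAAA), 4.20% (TGACTCA), 6.35% (CACGTG), 42.6% (GGGCGG), 1.63% (ATGCAAAT) and 9.29% (ACAATG) of promoters. These are matches of letters, not binding sites.

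The 6 arrays were alike in overall signal, with medians between 6.11 and 6.25 on the log2 scale of the deposited values. Gamma_OFF replicate 2 stood somewhat apart: its SD over genes was 1.64, against 1.70 to 1.81 on the other arrays, and the gamma_OFF pair correlated at 0.986 across genes (not independent replicates), against 0.994 in the other pairs. In the comparison of gamma_OFF with CTRL the 4240 genes dimmer than the median row had a median log2 difference of 0.16, and the other 10644 genes one of -0.05. The same split gave 0.01 and 0.03 in gamma_ON against CTRL, and -0.15 and 0.11 in gamma_ON against gamma_OFF. These shifts touch the receptor genes below, many of which are dim. All 21 measured pluripotency markers were brighter than the median row, and SOX2 stood between 11.39 and 11.73 on all 6 arrays. Their mean level was 9.61 to 9.68 in gamma_ON, 9.60 to 9.62 in gamma_OFF and 9.36 to 9.45 in CTRL.

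GAL was highest in gamma_ON. Its log2 level was 9.46 and 9.12 on the gamma_ON arrays, 8.64 and 8.74 on the gamma_OFF arrays, and 8.41 and 8.32 on the CTRL arrays. The order was thus gamma_ON, gamma_OFF, CTRL, with no overlap between any groups. The means were 9.29 ± 0.24 in gamma_ON, 8.69 ± 0.07 in gamma_OFF and 8.36 ± 0.06 in CTRL (SD, n = 2 each). The difference between gamma_ON and CTRL was 0.93 (SE 0.14), a level 1.90-fold higher. Gamma_OFF lay 0.33 (SE 0.14) above CTRL and gamma_ON 0.60 (SE 0.14) above gamma_OFF. The gamma_ON replicates differed by 0.34, nearly as much as the 0.38 between the lower gamma_ON array and the higher gamma_OFF array.

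NTS was also highest in gamma_ON, but its order differed from that of GAL because gamma_OFF lay below CTRL. The log2 levels were 9.51 and 9.53 in gamma_ON, 7.86 and 7.41 in gamma_OFF, and 8.41 and 8.12 in CTRL. The gamma_ON replicates were nearly equal, and the gamma_OFF replicates were 0.45 apart. The means were 9.52 ± 0.01 in gamma_ON, 7.64 ± 0.32 in gamma_OFF and 8.26 ± 0.20 in CTRL (SD, n = 2 each). Gamma_ON exceeded CTRL by 1.26 (SE 0.17), a 2.39-fold higher level, and exceeded gamma_OFF by 1.88 (SE 0.17), a 3.69-fold higher level. Gamma_OFF lay 0.63 (SE 0.17) below CTRL on average, but its nearest array was only 0.26 from the nearest CTRL array, less than the gap between the gamma_OFF replicates. That order therefore does not exceed the spread of the replicates.

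The brighter GRPR row went the other way. It stood at 10.49 and 10.37 in gamma_ON, 11.92 and 11.48 in gamma_OFF, and 12.26 and 12.47 in CTRL. The nearest arrays of gamma_ON and the other groups were 0.99 apart, a gap larger than any between replicates of this row. The mean was 10.43 ± 0.09 in gamma_ON, 11.70 ± 0.31 in gamma_OFF and 12.36 ± 0.15 in CTRL (SD, n = 2 each). The difference was -1.94 (SE 0.16) between gamma_ON and CTRL, a level 3.83-fold lower, and -1.27 (SE 0.16) between gamma_ON and gamma_OFF, a level 2.42-fold lower. Between gamma_OFF and CTRL it was -0.66 (SE 0.16). The nearest arrays of these last groups were 0.34 apart, against 0.44 between the gamma_OFF replicates.

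The dimmer GRPR row did not follow it. Its log2 levels were 10.60 and 10.44 in gamma_ON, 9.75 and 9.91 in gamma_OFF, and 10.09 and 10.08 in CTRL. Here gamma_ON was the highest group and gamma_OFF the lowest. The means were 10.52 ± 0.12 in gamma_ON, 9.83 ± 0.11 in gamma_OFF and 10.09 ± 0.01 in CTRL (SD, n = 2 each). The differences were 0.43 (SE 0.12) for gamma_ON against CTRL, 0.69 (SE 0.12) for gamma_ON against gamma_OFF and -0.26 (SE 0.12) for gamma_OFF against CTRL. Relative to its own CTRL mean, the dimmer row was at 0.52 and 0.35 on the gamma_ON arrays, where the brighter row was at -1.88 and -2.00. Both rows were below their CTRL means on the gamma_OFF arrays, the dimmer row by 0.34 and 0.18 and the brighter row by 0.45 and 0.88.

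**Figure D1:**
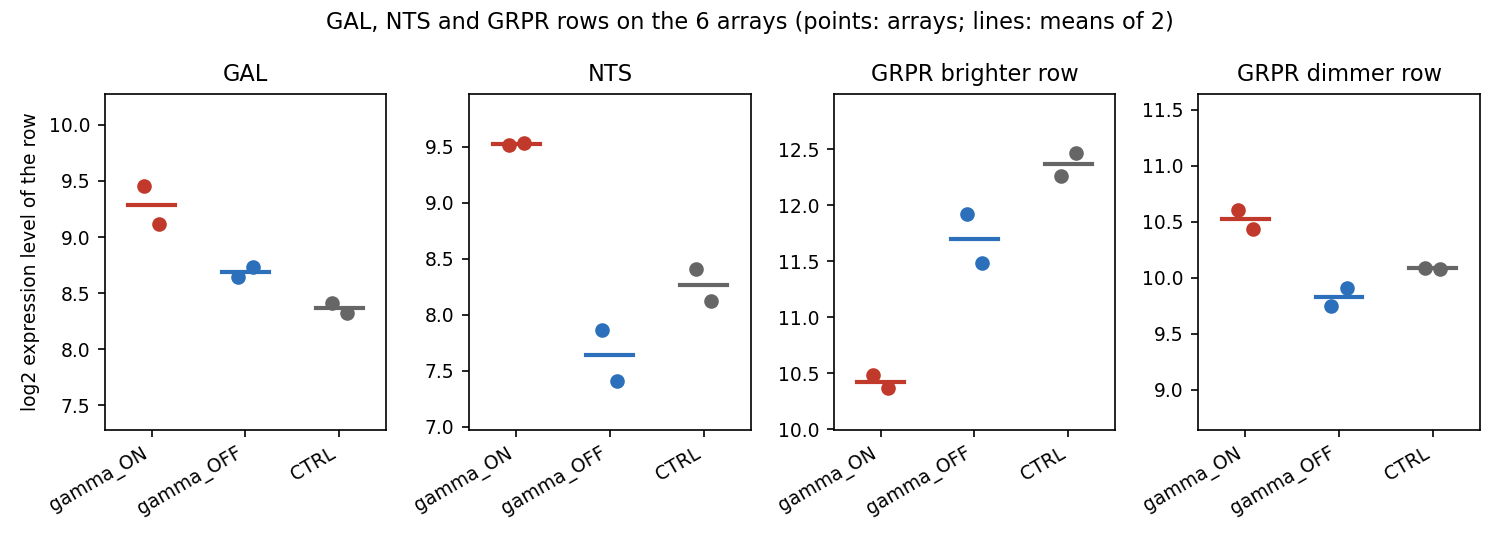
Log2 level of the rows of GAL, NTS and GRPR on each array (y axis, a window of equal height in every panel) by group (x axis); points are arrays and lines are means of 2. GAL, NTS and the dimmer GRPR row are highest in gamma_ON, and the brighter GRPR row is lowest there, at 10.49 and 10.37.

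**Figure D2:**
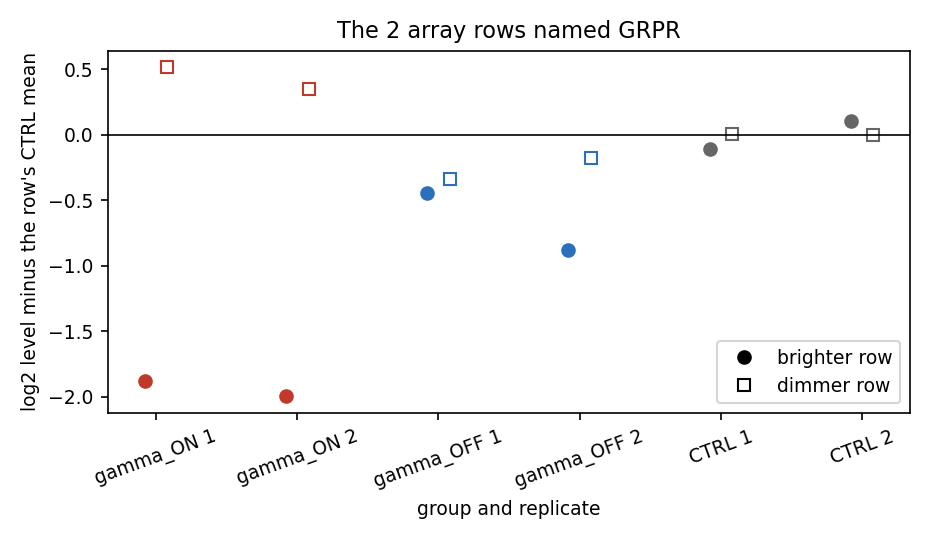
Log2 level of each GRPR row minus that row's own CTRL mean (y axis) on each array (x axis). On the gamma_ON arrays the brighter row (filled circles) lies at -1.88 and -2.00 and the dimmer row (open squares) at 0.52 and 0.35.

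Groups of arrays did not overlap in any of the 3 comparisons for any of the 4 rows. Since the members were chosen on these values, nothing is read from that, and the same pattern was common: 52.4% of all genes in gamma_ON against CTRL, 61.3% in gamma_OFF against CTRL and 63.3% in gamma_ON against gamma_OFF. The comparisons share arrays, so their values are not independent of each other. Among named rows that were lower in gamma_ON than in CTRL, of which there were 7424, the brighter GRPR row had the third largest difference. Among the 8674 that were higher, NTS ranked 26, GAL 53 and the dimmer GRPR row 609. In gamma_ON against gamma_OFF, NTS ranked 16, the dimmer GRPR row 343 and GAL 594 of 8353 higher rows, and the brighter GRPR row ranked 5 of 7745 lower rows. In gamma_OFF against CTRL the brighter GRPR row ranked 540, NTS 638 and the dimmer GRPR row 3178 of 7620 lower rows, and GAL ranked 2260 of 8478 higher rows.

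That the GRPR rows disagree was known when the members were chosen, so the rank of their disagreement is a description, not a test. Disagreement of this size between rows of a gene was rare on the array. Of 779 genes with several named rows, the log2 differences of their rows in gamma_ON against CTRL had a median spread of 0.15, while the GRPR rows were 2.37 apart, the widest of all 779. They were also the widest in gamma_ON against gamma_OFF, with 1.97 against a median of 0.20. In gamma_OFF against CTRL their spread was 0.40 against a median of 0.21, and 213 genes, GRPR among them, had at least that spread. Rows of opposite sign were themselves frequent, in 279 of the 779 genes in gamma_ON against CTRL.

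The 2 GRPR rows also sit in different places in the array's row order. Row identifiers run along the chromosomes 1 strand at a time: of 11549 named rows with a known gene strand, 95.2% named a gene on the strand of most of the 10 named rows around them. GRPR is on the plus strand of the X chromosome. The 10 rows around the brighter GRPR row named plus-strand genes of that chromosome in 10 cases, and the 10 rows around the dimmer row named its minus-strand genes in 10 cases. In all, 221 named rows had a gene on the opposite strand to all 10 rows around them. In GRCh38.p14 a long noncoding RNA gene of the minus strand, MAGEB17-AS1, overlaps GRPR, and no row was named for it. No source used here gives the strand or position of the probes of either row, so whether the dimmer row measures GRPR RNA was not tested. The rows around GAL and NTS named plus-strand genes in 10 of 10 cases each. A noncoding RNA gene on the minus strand, LOC107984343, overlaps GAL in the same assembly, and likewise had no named row.

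No partner gene of the 3 members passed the test. Of 12 other listed genes of the galanin, neurotensin and bombesin systems, 10 had a named row, and 0 were called by limma in any comparison (adjusted p under 0.05 over all 14884 genes). At an unadjusted p under 0.05 the counts were 0 in gamma_ON against CTRL, 5 in gamma_OFF against CTRL and 3 in gamma_ON against gamma_OFF, where 14.8%, 30.4% and 33% of all genes had such a p. Over all genes the calls were 1.55% in gamma_ON against CTRL (0.739% higher and 0.806% lower), 8.85% in gamma_OFF against CTRL (2.77% higher and 6.08% lower) and 5.99% in gamma_ON against gamma_OFF (3.98% higher and 2.02% lower). Of the 10 genes 5 were brighter than the median row.

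The galanin receptors stood close to CTRL in gamma_ON. GALR1, which couples to inhibitory G proteins, was at 4.24 and 3.97 in gamma_ON, 4.28 and 4.29 in gamma_OFF, and 3.95 and 4.29 in CTRL; both H2A.X groups overlapped CTRL, and gamma_ON lay just below gamma_OFF. GALR2, which couples to the phospholipase C pathway, was at 7.33 and 7.79 in gamma_ON, 7.91 and 7.86 in gamma_OFF, and 7.64 and 7.47 in CTRL. GALR3 averaged 6.70 ± 0.16 in gamma_ON, 7.12 ± 0.12 in gamma_OFF and 6.65 ± 0.07 in CTRL (SD, n = 2 each). Their log2 differences in gamma_ON against CTRL were -0.02, 0.01 and 0.05, whereas GAL itself differed by 0.93. GALR3 had the largest difference of the 10 partner genes in gamma_OFF against CTRL, 0.47 (SE 0.13), with a limma adjusted p of 0.0562. It was called in that comparison with dim genes left out of the test and with a trended and robust spread model. Over all genes the calls in these settings were 1731 and 1729, against 1317 in the main test. With dim genes left out GALR3 was also called in gamma_ON against gamma_OFF. Calls over all genes were 1862 in that setting, against 892 in the main test. GALP, which encodes a galanin-like peptide, was at 5.95 and 5.96 in gamma_ON, 6.07 and 6.05 in gamma_OFF, and 6.21 and 6.10 in CTRL.

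The neurotensin receptor genes also stood close to CTRL in gamma_ON. NTSR1, the high-affinity receptor, was at 7.20 and 7.14 in gamma_ON, 7.58 and 7.29 in gamma_OFF, and 6.93 and 7.25 in CTRL. NTSR2 was at 5.53 and 5.34 in gamma_ON, 5.75 and 5.91 in gamma_OFF, and 5.36 and 5.49 in CTRL. In gamma_ON against CTRL the difference was 0.08 (SE 0.15) for NTSR1 and 0.01 (SE 0.13) for NTSR2, against 1.26 for NTS. Both lay higher in gamma_OFF than in CTRL, by 0.35 and 0.41, and did not pass the test there (limma adjusted p of 0.159 and 0.076). SORT1 and SORL1, also on the list as sorting receptors, had no named row.

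In the bombesin system the ligand of GRPR was not lower where the brighter GRPR row was lower. GRP stood at 7.68 and 7.67 in gamma_ON, 8.00 and 7.80 in gamma_OFF, and 7.55 and 7.51 in CTRL, with differences of 0.15 (SE 0.12) in gamma_ON against CTRL and 0.37 (SE 0.12) in gamma_OFF against CTRL. NMB, the neuromedin B gene, was at 6.47 and 6.53 in gamma_ON, 6.32 and 6.37 in gamma_OFF, and 6.34 and 6.30 in CTRL. Neither gene passed the test, with limma adjusted p-values of 0.63 and 0.516 in gamma_ON against CTRL. NMBR, the neuromedin B receptor gene, was at 5.80 and 5.78 in gamma_ON, 5.94 and 6.19 in gamma_OFF, and 5.63 and 5.76 in CTRL. BRS3, an orphan receptor of the family, was at 4.89 and 4.69 in gamma_ON, 5.04 and 5.18 in gamma_OFF, and 4.96 and 5.02 in CTRL. NMBR and NTSR2 were called in both comparisons that use gamma_OFF when gamma_OFF replicate 1 was left out. That fit leaves replicate 2 alone in its group, the array that stood apart. Calls over all genes rose in it too, so nothing is read from these calls.

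**Figure D3:**
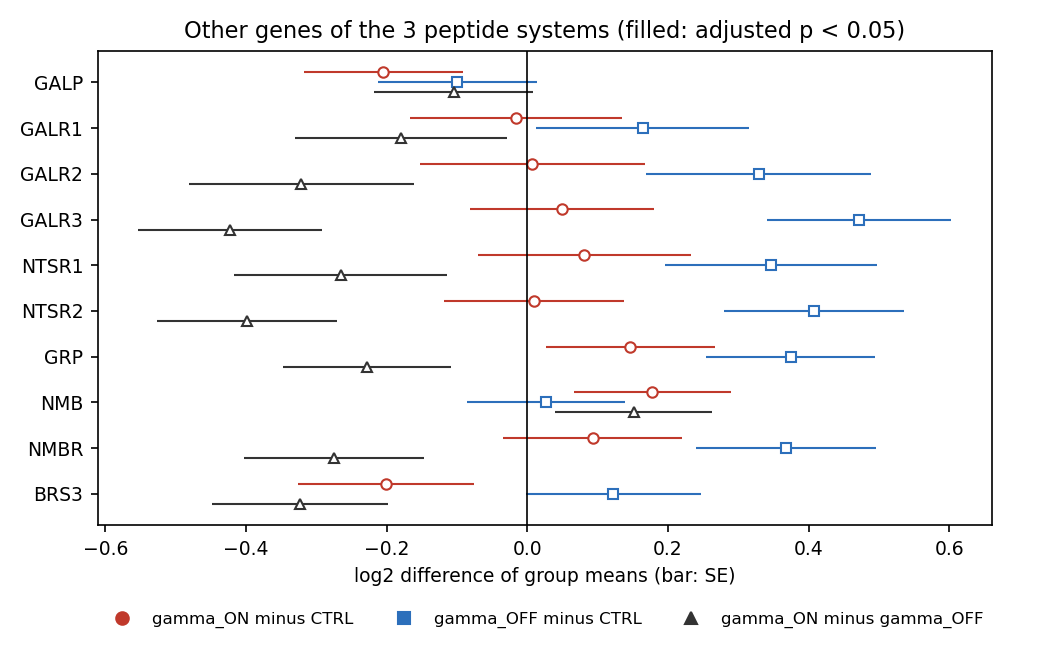
Log2 difference of group means (x axis; bars are SE from limma) for the 10 measured partner genes of GAL, NTS and GRPR (y axis) in the 3 comparisons. No symbol is filled, since 0 genes were called; in gamma_ON against CTRL all 10 lie between -0.20 and 0.18.

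Across the wider set of peptide genes a few receptors and processing genes were called. The list held 164 ligands, receptors and processing genes besides the members, of which 142 were measured and 91 were brighter than the median row. Between gamma_ON and CTRL 6 rose, 4 fell and 132 did not pass, or 7.04% called, beside 1.55% of all genes. The list was drawn up with earlier results of these arrays known, so that share is not independent of them. In gamma_OFF against CTRL 3 rose and 5 fell (5.63%, beside 8.85% of all genes), and in gamma_ON against gamma_OFF 6 were higher and 1 was lower (4.93%, beside 5.99%). In these last comparisons the list was thus called no more often than genes at large, and the genes named below from them are examples, not a feature of the list. The median log2 differences of the list were 0.03, 0.16 and -0.16 in these comparisons, beside 0.02, 0.01 and 0.02 over all genes.

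The largest rises in gamma_ON were in 1 peptidase and 1 receptor gene. DPP4, a membrane peptidase that trims several peptide hormones, was at 8.97 and 9.08 in gamma_ON, 7.49 and 7.64 in gamma_OFF, and 7.86 and 7.56 in CTRL. It was higher in gamma_ON than in CTRL by 1.31 (SE 0.14, limma adjusted p = 0.00272) and higher than in gamma_OFF by 1.46 (SE 0.14, adjusted p = 0.0013). APLNR, the apelin receptor gene, which is also active in early mesoderm, was at 8.81 and 8.37 in gamma_ON, 7.16 and 6.93 in gamma_OFF, and 7.45 and 7.23 in CTRL, a rise of 1.25 over CTRL (limma adjusted p = 0.00869). The gamma_ON arrays of both genes lay above all other arrays. SCG3, a secretory granule protein gene, was at 9.38 and 9.18 in gamma_ON, 9.15 and 8.72 in gamma_OFF, and 8.23 and 8.32 in CTRL. It rose in both groups, by 1.01 (limma adjusted p = 0.0197) in gamma_ON and by 0.66 (limma adjusted p = 0.0401) in gamma_OFF.

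Receptors of other families were called at low signal. AVPR1A, a vasopressin receptor gene, rose by 0.84 in gamma_ON over CTRL (limma adjusted p = 0.0243), CALCR, the calcitonin receptor gene, by 0.82 (limma adjusted p = 0.0389) and CCKAR, a cholecystokinin receptor gene, by 0.69 (limma adjusted p = 0.0245). All of these were dimmer than the median row on average. EDNRB, an endothelin receptor gene, fell by 0.73 (limma adjusted p = 0.0323) and NPY5R, a neuropeptide Y receptor gene, by 0.58 (limma adjusted p = 0.0481). AVPR1A and CALCR were also higher in gamma_ON than in gamma_OFF, by 0.96 and 0.74, as was CALCRL, a receptor gene for calcitonin gene-related peptide and adrenomedullin, by 0.69 (limma adjusted p of 0.0113, 0.0379 and 0.045).

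Several genes were lower than in CTRL with either H2A.X vector. EDN1, the endothelin-1 gene, was at 6.70 and 6.77 in gamma_ON, 6.68 and 6.56 in gamma_OFF, and 7.37 and 7.64 in CTRL. It fell by 0.77 in gamma_ON (limma adjusted p = 0.0259) and by 0.88 in gamma_OFF (limma adjusted p = 0.00857). VGF, the precursor of several neurosecretory peptides, fell by 0.68 in gamma_ON (limma adjusted p = 0.0424) and by 0.57 in gamma_OFF (limma adjusted p = 0.0353), and NPY5R by 0.46 in gamma_OFF (limma adjusted p = 0.0434). Other calls in gamma_OFF against CTRL were in processing and signalling genes: the prohormone carboxypeptidase gene CPE fell by 0.58 and the granule chaperone gene SCG5 by 0.63, while the gastrin gene GAST rose by 0.50 and the substance P receptor gene TACR1 by 0.55 (limma adjusted p of 0.0405, 0.033, 0.0487 and 0.0464). CPE was 0.67 higher in gamma_ON than in gamma_OFF, and QRFP, an RFamide peptide gene, 0.49 lower (limma adjusted p of 0.0391 and 0.0432).

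Most of these calls were lost without at least 1 of the 6 arrays. Calls over all genes also moved with the array left out, and rose without gamma_OFF replicate 1 in both comparisons that use that group. In gamma_ON against CTRL calls rose without either gamma_OFF array, both in the list and over all genes. For gamma_ON against CTRL the count of 10 became 3 without CTRL replicate 1, and 1 without CTRL replicate 2, without gamma_ON replicate 1 or without gamma_ON replicate 2. In gamma_OFF against CTRL the count of 8 became 1 without CTRL replicate 1, 0 without CTRL replicate 2, 2 without gamma_OFF replicate 2 and 27 without gamma_OFF replicate 1. It was 1 without either gamma_ON array. In gamma_ON against gamma_OFF the count of 7 became 3 without either CTRL array or without gamma_OFF replicate 2, 2 without either gamma_ON array and 34 without gamma_OFF replicate 1. DPP4 and APLNR in gamma_ON against gamma_OFF were called whichever array was left out, with limma adjusted p-values of at most 0.0248 and 0.0368. In gamma_ON against CTRL their highest adjusted p-values were 0.0513 and 0.102, and in gamma_OFF against CTRL that of EDN1 was 0.0805. With an array left out the other calls named here reached adjusted p-values between 0.124 and 0.358.

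**Figure D4:**
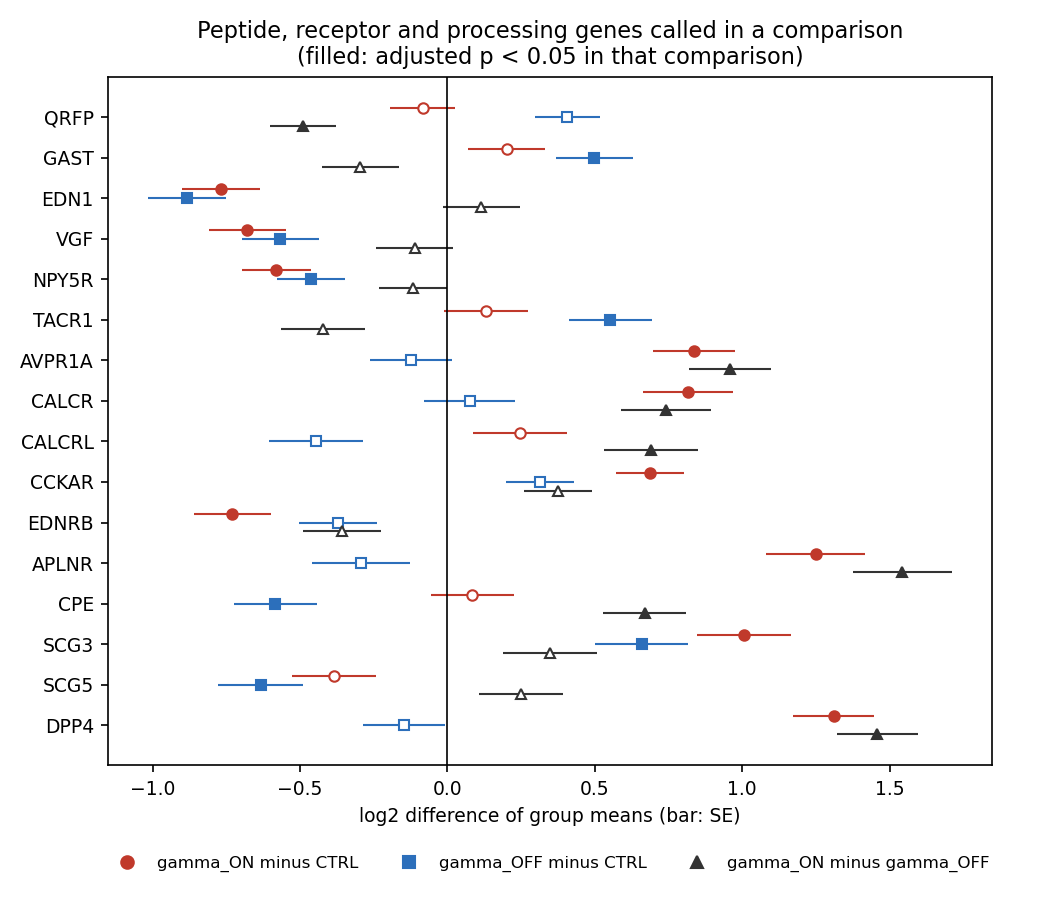
Log2 difference of group means (x axis; bars are SE from limma) for the 16 peptide, receptor and processing genes called in at least 1 comparison (y axis). Filled symbols passed an adjusted p of 0.05 in that comparison; DPP4 and APLNR lie farthest right, at 1.46 and 1.54 in gamma_ON against gamma_OFF.

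The genes beside the members on the chromosomes were examined next. For each member the 5 nearest measured genes on each side were taken from the RefSeq order in GRCh38.p14, 30 in all, with unmeasured genes lying between some of them. In gamma_ON against CTRL 0 of the 30 were called by limma, beside 1.55% of all genes. An unadjusted limma p under 0.05 was found for 5 of the 30, beside 14.8% of all genes. In gamma_OFF against CTRL it was found for 10 of the 30, beside 30.4% of all genes. In gamma_ON against gamma_OFF it was found for 12, beside 33%. Of the 10 neighbours of GRPR on the X chromosome 9 were lower on average in gamma_ON than in CTRL, without passing the test. The brighter GRPR row stood at -1.94 and the dimmer row at 0.43. Of all 16098 named rows 7424 were lower in this comparison. Some of the 9 overlap, as MIR548AM starts within CTPS2, so they are not all separate places. The 9 included SYAP1 at -0.47, CLTRN at -0.38, PIR-FIGF at -0.35, TXLNG at -0.26, CTPS2 at -0.19 and CA5BP1 at -0.10, and ASB11 stood at 0.19. The lowest value among the 30 was -1.38 (SE 0.63), for MIR548AM, a dim microRNA gene with several near-identical copies whose rows are uncertain. It stood at 3.15 and 5.53 in CTRL and at 3.55 and 2.37 in gamma_ON, so these groups overlapped. The neighbours of GAL on chromosome 11 lay between -0.06 for C11orf24 and 0.26 for CPT1A, beside 0.93 for GAL.

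Around NTS on chromosome 12 some neighbours did differ where gamma_OFF was involved, but most of these lie far from it. RLIG1, CEP290, KITLG and LINC02458 start between 2161 and 3137 kb after the start of NTS. RASSF9, the nearest measured gene, starts at -74 kb from it and was not called. Its difference was 0.07 in both comparisons with CTRL and -0.0024 in gamma_ON against gamma_OFF. KITLG, which encodes the ligand of the receptor KIT, was at 8.18 and 7.83 in gamma_ON, 6.54 and 6.49 in gamma_OFF, and 7.90 and 7.49 in CTRL. It fell by 1.18 in gamma_OFF against CTRL (limma adjusted p = 0.00809, and 0.0507 without CTRL replicate 1) and was 1.49 higher in gamma_ON than in gamma_OFF (limma adjusted p = 0.0033). The difference between gamma_ON and CTRL was 0.31 (limma adjusted p = 0.44), where NTS stood at 1.26. CEP290 and RLIG1 fell by 0.61 and 0.64 in gamma_OFF against CTRL, and LINC02458 rose by 0.57 (limma adjusted p of 0.0257, 0.024 and 0.0298). Near GRPR, CLTRN fell by 0.85 in the same comparison (limma adjusted p = 0.0121). These 5 of 30 genes, of which RLIG1 and CEP290 overlap on the chromosome, were 16.7%, beside 8.85% of all genes. The count became 1 without either CTRL array or without gamma_OFF replicate 2, 3 without either gamma_ON array and 10 without gamma_OFF replicate 1.

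In gamma_ON against gamma_OFF 5 of the 30 were higher, namely KITLG, CEP290, RLIG1, ALX1 and CPT1A, also 16.7%, beside 5.99% of all genes. The last 4 differed by 0.68, 0.53, 0.60 and 0.47, with limma adjusted p-values of 0.027, 0.0494, 0.0456 and 0.0477. KITLG was the gene called whichever array was left out, with a limma adjusted p of at most 0.0497. The count of 5 became 1 without any array but gamma_OFF replicate 1, and 10 without that array.

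**Figure D5:**
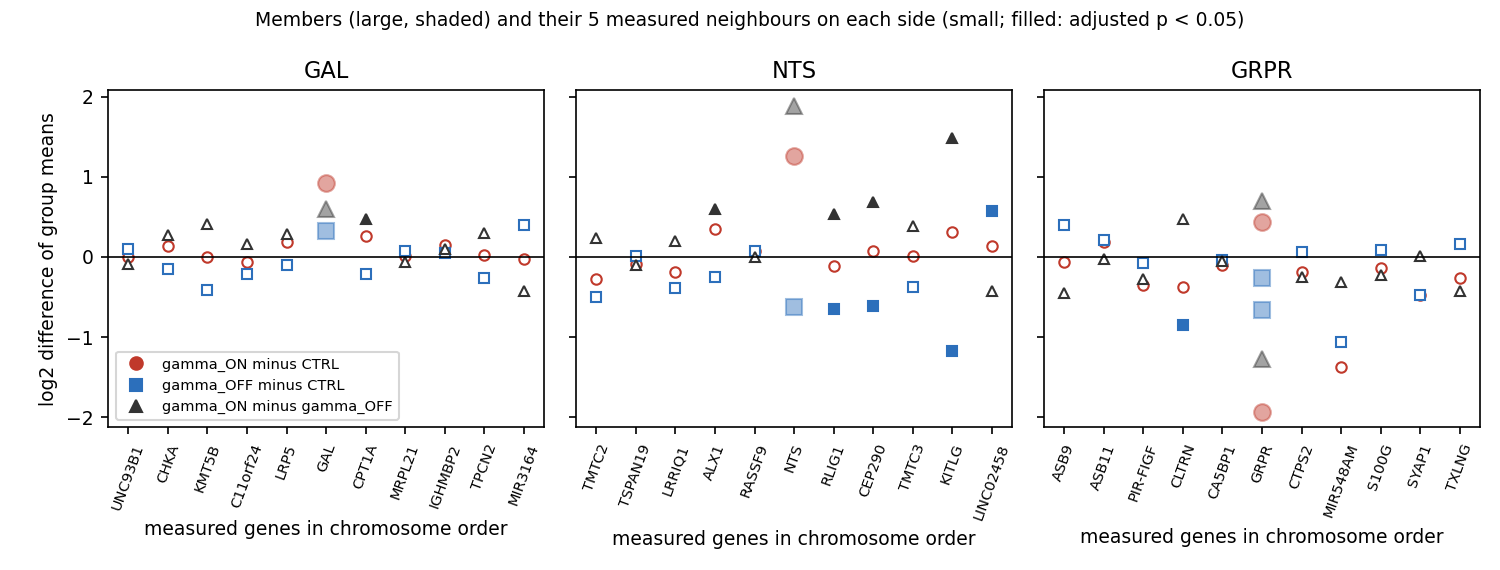
Log2 difference of group means (y axis) for each member (large shaded symbols, 2 rows for GRPR) and its 5 measured neighbours on each side in chromosome order (x axis). Small filled symbols passed an adjusted p of 0.05. KITLG, which starts 2618 kb after the start of NTS, lies at 1.49 in gamma_ON against gamma_OFF. In gamma_ON against CTRL the GRPR rows lie at -1.94 (brighter) and 0.43 (dimmer), and their 10 neighbours between -1.38 (MIR548AM) and 0.19. The CTRL arrays of MIR548AM were 2.38 apart.

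Genes with the most similar pattern were sought among 886 genes whose highest and lowest arrays differed by at least 1 log2 unit. The measure was Pearson's r over the 6 arrays, which fall into 3 groups, so that any gene with the same order of groups scores high. For GAL the most similar were TIMP4 (0.989), a metalloproteinase inhibitor gene, HECTD2 (0.985) and the kinase gene PRKD1 (0.983). TIMP4 was at 7.94 and 7.63 in gamma_ON, 7.06 and 6.97 in gamma_OFF, and 6.69 and 6.48 in CTRL. For NTS they were HAPLN1 (0.990), which links hyaluronan to proteoglycans, LIX1 (0.990) and the fibrinogen chain gene FGB (0.987). FGB was at 10.14 and 10.22 in gamma_ON, 7.31 and 7.21 in gamma_OFF, and 8.24 and 7.78 in CTRL.

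The 2 GRPR rows correlated with each other at -0.74 over the 6 arrays. A gene highly similar to both could therefore not occur, and nothing is read from the absence of a shared one. For the brighter row the most similar genes were DOCK3 (0.975), SYT11 (0.966), a synaptotagmin gene, and MIR4253 (0.929). For the dimmer row they were EOMES (0.978), a T-box gene of mesendoderm, DKK1 (0.975), a WNT inhibitor gene, and ARHGAP29 (0.971). SYT11 was at 7.94 and 8.00 in gamma_ON, 8.97 and 8.89 in gamma_OFF, and 9.12 and 9.08 in CTRL. EOMES was at 9.04 and 8.99 in gamma_ON, 7.29 and 7.46 in gamma_OFF, and 7.93 and 7.73 in CTRL.

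Markers of other cell types moved beside the members; the share of all genes called, for the counts of markers that follow, was 1.55% in gamma_ON against CTRL, 8.85% in gamma_OFF against CTRL and 5.99% in gamma_ON against gamma_OFF. The mean level of 11 endoderm markers was 8.83 to 8.89 in gamma_ON, 7.62 to 7.67 in gamma_OFF and 7.74 to 7.99 in CTRL, an order shared with NTS, and 10 of the 11 were brighter than the median row. The median of their differences in gamma_ON against CTRL was smaller than the shift of the mean, 0.30, with a range of -0.62 to 4.37. In gamma_ON against CTRL 4 of them rose, among them AFP (4.37) and TTR (1.38), and 1 fell, CXCR4 by 0.62. CXCR4 was no longer called when any 1 array of these groups was left out. Without a gamma_ON array the adjusted p of TTR reached 0.0746. In gamma_OFF against CTRL 1 rose, AFP by 1.02, and 3 fell, and in gamma_ON against gamma_OFF 5 were higher. Without CTRL replicate 2 AFP was not called in gamma_OFF against CTRL. The order of AFP was thus gamma_ON, gamma_OFF, CTRL, which is the order of GAL and not of NTS. The mean of 10 neuroendocrine markers was 7.12 to 7.15 in gamma_ON, 7.05 to 7.18 in gamma_OFF and 6.82 to 6.87 in CTRL, with 3, 2 and 2 higher in the same 3 comparisons and 0 lower. The vesicle gene SYT4 rose by 1.16 in gamma_ON (limma adjusted p = 0.00258).

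The mean of 11 neural markers was 7.22 to 7.22 in gamma_ON, 7.30 to 7.41 in gamma_OFF and 7.49 to 7.64 in CTRL, with 0 higher in any comparison and 2, 3 and 1 lower. STMN2, a neuronal growth gene, fell by 0.88 in gamma_ON and fell by 1.06 in gamma_OFF against CTRL (limma adjusted p of 0.0101 and 0.00452), and with an array left out these reached 0.127 and 0.0369. Of 7 measured fibroblast markers 1 fell in gamma_ON and 2 fell in gamma_OFF against CTRL, and 2 were higher in gamma_ON than in gamma_OFF. Their mean was 7.64 to 7.69 in gamma_ON, 7.18 to 7.30 in gamma_OFF and 7.54 to 7.78 in CTRL. The part of these cell types in the levels of GAL, NTS and GRPR was not tested. Among 21 pluripotency markers 4 rose and 0 fell in gamma_ON against CTRL, 3 rose and 0 fell in gamma_OFF against CTRL, and 2 were higher and 1 was lower in gamma_ON than in gamma_OFF. The 4 were GDF3, NODAL, POU5F1 and VRTN. Differences of the 21 in gamma_ON against CTRL had a median of 0.17 and ranged from -0.42 to 1.98. POU5F1, which has near-identical pseudogenes, differed by 0.71 (limma adjusted p = 0.0441, and 0.283 without CTRL replicate 1), NANOG by 0.25 and SOX2 by 0.24 in gamma_ON against CTRL.

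Downstream signalling could hardly be described. Of 27 listed genes for the G proteins, phospholipases and regulators used by these receptors, 2 had a named row. RGS4, which shortens G protein signalling, was at 5.89 and 5.97 in gamma_OFF and 6.04 and 5.92 in CTRL, and both gamma_ON arrays lay above these. It rose by 0.62 in gamma_ON against CTRL (limma adjusted p = 0.0356) and was 0.67 higher than in gamma_OFF (limma adjusted p = 0.0215). With an array left out these adjusted p-values reached 0.323 and 0.196.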

How the data were processed

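The authors deposited log2 expression values, 1 column per array, for 53617 array rows. RMA and Partek 6.6 are named per the submitters' processing notes. Neither their order and settings nor a build or annotation is given in the sources used here. That the scale is log2 was taken from RMA and the range of values. A platform annotation table named 16098 rows with 1 gene each, 0 with several, and left 37519 unnamed here; all 16098 identifiers matched RefSeq's GRCh38.p14 gene table. A gene with several rows was represented by its brightest row on average, which left 14884 genes. The number of arrays limits the precision.

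One limma 3.58.1 fit in R 4.3.3 (lmFit and eBayes) over all 6 arrays, with 3 residual and 6.05 prior degrees of freedom, gave 3 two-sided contrasts, with Benjamini-Hochberg adjustment over the 14884 genes. SEs of member rows come from the same fit over all 16098 named rows. The fit was tested on simulated data.

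The members and the 12 gene lists (galanin, neurotensin and bombesin systems, other ligands, other receptors, processing, signalling, and markers of pluripotent, fibroblast, neural, endoderm and neuroendocrine cells) were chosen with earlier results of these data known. The text names the members, their partners, POU5F1, NANOG and SOX2, up to 4 called genes per list and comparison, and 3 similar genes per row. CCKAR, CXCR4, MIR548AM, SYAP1, PIR-FIGF, TXLNG, ASB11, CA5BP1, CTPS2, C11orf24, RASSF9, and for gamma_ON against CTRL CLTRN, CPT1A, KITLG and NPY5R, were named after their values were seen. Alternatives varied the rows tested, a filter on dim genes, the spread model, array weights, the replicate number as a block, the normalization and the arrays in the fit.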

Additional observations from a re-analysis of the deposited data

How the results depend on the processing

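The direction of the difference of each member row was kept in all 3 comparisons under quantile normalization, array weights, a replicate block and leaving out each array. Quantile normalization moved 4 of these by more than the replicate SD pooled over the 2 groups compared: GAL became 0.48 in gamma_OFF minus CTRL and 0.41 in gamma_ON minus gamma_OFF, and the dimmer GRPR row -0.11 and 0.53. With 1 array left out, gamma_ON minus CTRL ranged from 0.76 to 1.09 for GAL, 1.11 to 1.40 for NTS, -2.04 to -1.83 for the brighter GRPR row and 0.35 to 0.52 for the dimmer one. Gamma_OFF minus CTRL ranged from 0.28 to 0.37, -0.85 to -0.40, -0.88 to -0.45 and -0.34 to -0.18 in the same order, and gamma_ON minus gamma_OFF from 0.43 to 0.77, 1.66 to 2.11, -1.49 to -1.05 and 0.61 to 0.78.

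Counts of calls depended on the setting. For the peptide list, 10 calls in gamma_ON against CTRL became 1 over all rows of the table and 16 with array weights, and 1 to 14 with an array left out. The 8 in gamma_OFF against CTRL became 1 over all rows, 13 with dim genes left out, 13 with a trended and robust spread model, 3 with array weights and 1 in a fit of only the 2 groups, and 0 to 27 with an array left out. The 7 in gamma_ON against gamma_OFF became 1, 17, 12, 3 and 3 in the same order, and 2 to 34. For the chromosome neighbours, 0 calls in gamma_ON against CTRL became 0 to 1 with an array left out. The 5 in gamma_OFF against CTRL became 1 over all rows and 3 in a fit of only the 2 groups, and 1 to 10. The 5 in gamma_ON against gamma_OFF became 2 over all named rows, 0 over all rows, 8 with dim genes left out, 1 with array weights, 1 in a fit of only the 2 groups and 3 with quantile normalization, and 1 to 10. The cause of these changes was not tested.

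Over all genes, 230 calls in gamma_ON against CTRL became 89 over all rows, 377 with dim genes left out, 381 with trend and robust, 803 with array weights and 487 in a fit of only the 2 groups, and 34 to 487 with an array left out. The 1317 in gamma_OFF against CTRL became 767 with array weights and 567 in a fit of only the 2 groups, and 131 to 3515. The 892 in gamma_ON against gamma_OFF became 56, 1862, 1596, 229 and 275 in the first order and 476 with quantile normalization, and 49 to 4061.

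Same-numbered arrays did not deviate together (r across genes of -0.10, -0.07 and 0.09), so the numbers were not taken as pairs. With the replicate block the peptide list had 9, 7 and 7 calls, the neighbours 0, 5 and 3, and all genes 210, 1245 and 871. The values used here carry no background signal, so which genes lay above background was not analysed.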
